A study of Mus musculus with 8 samples.

Results

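The naive pluripotency factors described here are 10 transcription regulators that sustain or mark the ground state of mouse embryonic stem cells (mESCs): Nanog, Esrrb, Klf2, Klf4, Klf5, Nr5a2, Tfcp2l1, Tbx3, Zfp42 and Prdm14. They were chosen by name, with earlier results of these data known, and all 10 were found once each among the 50600 rows of the expression table. RNA was sequenced from OG2 mESCs (passage P12, of mixed 129SVJ, C57B6 and CBA strain) of the genotype c-Jun_TetOn_mESC, in which doxycycline switches on c-Jun, so that the pluripotent-somatic transition (PST), the exit from pluripotency driven by JUN, begins. By the labels, all 8 libraries came from cells given 2 µg/ml doxycycline together with solvent or compound for 6 h, in feeder-free medium with serum, LIF, the MEK inhibitor PD0325901 and the GSK3 inhibitor Chir99021. A legend of the study gives a longer time for JUN than for the compounds, so doxycycline may have been present for more than these 6 h. The 4 groups had 2 libraries each, numbered replicate 1 and replicate 2: doxycycline with the solvent (DMSO), doxycycline with PFI-3, an inhibitor of the bromodomain of the BAF ATPase BRG1, doxycycline with BI-9564, an inhibitor of the bromodomains of BRD7 and BRD9, and doxycycline with both compounds (P+B). Cells without doxycycline were not analysed here, so the effect of JUN itself on these genes was not measured, and every value below is a level in cells that already expressed the transgene. Both kinase inhibitors, which hold the naive state, were present throughout, and the labels give no doses of the compounds, so how much of each was in P+B relative to the single treatments is not known here.

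Naive pluripotency is held by a mutually reinforcing circuit of transcription factors that sit below 3 extracellular inputs: LIF acting through STAT3, WNT or GSK3 inhibition acting through TCF7L1, and the block of FGF/ERK signalling. KLF4 and TFCP2L1 are known targets of LIF/STAT3, ESRRB is the known target released when GSK3 is inhibited, and KLF2 is the factor stabilised by MEK inhibition. When the circuit dissolves, these genes are silenced within hours to days, before the general factor OCT4 is lost, and they are therefore used as readouts of departure from the naive state.

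The values are TPM, a measure scaled to transcript length and library size, given as whole numbers, so that levels can be compared between genes. The number of reads behind them is unknown, so no counting error can be given. In the DMSO libraries, Klf5 and Zfp42 had the highest levels, with 184.5 ± 26.2 and 179.5 ± 67.2 (mean ± SD, n = 2), and their libraries overlapped. Esrrb (72 ± 19.8), Klf2 (58.5 ± 9.19), Nanog (55.5 ± 21.9) and Tbx3 (42 ± 11.3) followed, then Tfcp2l1 (35 ± 9.90) and Klf4 (28.5 ± 4.95), each overlapping its neighbour in this order. Nr5a2 stood lower (6 ± 2.83). Prdm14, a PR-domain protein that restrains FGF signalling and DNA methylation in mESCs, was 1 in the replicate 1 libraries of DMSO and PFI-3 and 0 in the other 6 libraries, and it was the only member too low to be tested. The other 9 were tested, as were 10222 genes in all whose mean reached 5. The summed level of the 10 genes was 785 and 539 in the DMSO libraries, 972 and 767 under PFI-3, 702 and 466 under BI-9564, and 823 and 588 under P+B (replicate 1, then 2). In every group the replicate 2 library was the lower, and in both replicate numbers PFI-3 gave the highest sum and BI-9564 the lowest.

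The identity of the cells was also checked. The 7 ES cell markers (Pou5f1, Sox2, Sall4, Dppa5a, Tdh, Utf1 and Lin28a) summed to 3640 to 5196 in the 8 libraries, and in each group this sum too was lower in replicate 2. Most of that difference was Dppa5a (2925 and 1925 in the DMSO libraries), whereas Pou5f1 was level there (1273 and 1281) and Lin28a was higher in replicate 2 in every group (47 and 64 in DMSO). The 10 fibroblast markers summed to 2 to 9, with 5 of them at 0 in every library, the 8 primitive endoderm markers to 9 to 16 with 3 at 0 throughout, and the 6 trophoblast markers to 14 to 27 with 1 at 0 throughout. Markers of two-cell-like cells, a rare state within mESC cultures, summed to 10 to 14 in the replicate 1 libraries and 66 to 81 in the replicate 2 libraries. Jun itself was 1970 and 2877 in the DMSO libraries, 1570 and 2227 under PFI-3, 2071 and 3011 under BI-9564, and 1569 and 2159 under P+B, transgene and endogenous gene together. In bulk samples fewer cells in a state and less RNA per cell cannot be told apart.

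The members were first compared one by one, beginning with the Krüppel-like factors, zinc finger proteins that occupy many of the same sites. Klf2 (chr8:72319033-72321656, + strand of GRCm38) was 65 and 52 in the DMSO libraries, 109 and 95 under PFI-3, 88 and 60 under BI-9564, and 152 and 94 under P+B. It was lowest in DMSO within each replicate number, and both P+B libraries lay above both DMSO libraries. Klf4 (chr4:55527143-55532466, - strand) was 32 and 25 in the DMSO libraries, 53 and 48 under PFI-3, 35 and 26 under BI-9564, and 48 and 35 under P+B. Within each replicate number the PFI-3 library was the highest, and the BI-9564 libraries lay close to those of DMSO. Klf5 (chr14:99298691-99315036, + strand) was 203 and 166 in the DMSO libraries, 202 and 175 under PFI-3, 177 and 137 under BI-9564, and 144 and 118 under P+B. Thus Klf5 ran the other way, with both P+B libraries below both DMSO libraries, and PFI-3 level with DMSO.

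The orphan nuclear receptors Esrrb and Nr5a2 recognise the same extended DNA motif. Esrrb (chr12:86361117-86521628, + strand) was 86 and 58 in the DMSO libraries, 128 and 110 under PFI-3, 76 and 54 under BI-9564, and 141 and 100 under P+B. The 4 libraries with PFI-3, alone or combined, ran from 100 to 141 and the 4 without from 54 to 86, so they did not overlap. Nr5a2 (chr1:136842571-136960448, - strand) was 8 and 4 in the DMSO libraries, 12 and 6 under PFI-3, 8 and 3 under BI-9564, and 8 and 5 under P+B. At such levels a step of 1 in the whole-number value is a large share of the level.

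Nanog, the homeodomain factor that secures self-renewal (chr6:122707489-122714633, + strand), was 71 and 40 in the DMSO libraries, 106 and 57 under PFI-3, 59 and 29 under BI-9564, and 68 and 46 under P+B. Within each replicate number PFI-3 was the highest and BI-9564 the lowest, yet the distance between the 2 libraries of a group was similar to that between groups. Zfp42, the zinc finger gene also known as Rex1 and the usual reporter of the naive state (chr8:43295063-43306980, - strand), was 227 and 132 in the DMSO libraries, 257 and 189 under PFI-3, 189 and 100 under BI-9564, and 186 and 120 under P+B. Its groups overlapped in the same manner.

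Tfcp2l1, a grainyhead-like factor (chr1:118627945-118685168, + strand), was 42 and 28 in the DMSO libraries, 54 and 42 under PFI-3, 34 and 28 under BI-9564, and 42 and 33 under P+B. Tbx3, a T-box factor downstream of several of the inputs (chr5:119670669-119684724, + strand), was 50 and 34 in the DMSO libraries, 50 and 45 under PFI-3, 36 and 29 under BI-9564, and 34 and 37 under P+B. For both genes the PFI-3 libraries were the highest of their replicate number, with a tie between PFI-3 and DMSO for Tbx3 in replicate 1. Tbx3 overlaps the antisense gene Tbx3os1 and Tfcp2l1 overlaps 3 short annotated genes, and since the strand setting of the counting is not given in the sources used here, reads of overlapping genes cannot be told apart.

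**Figure D1:**
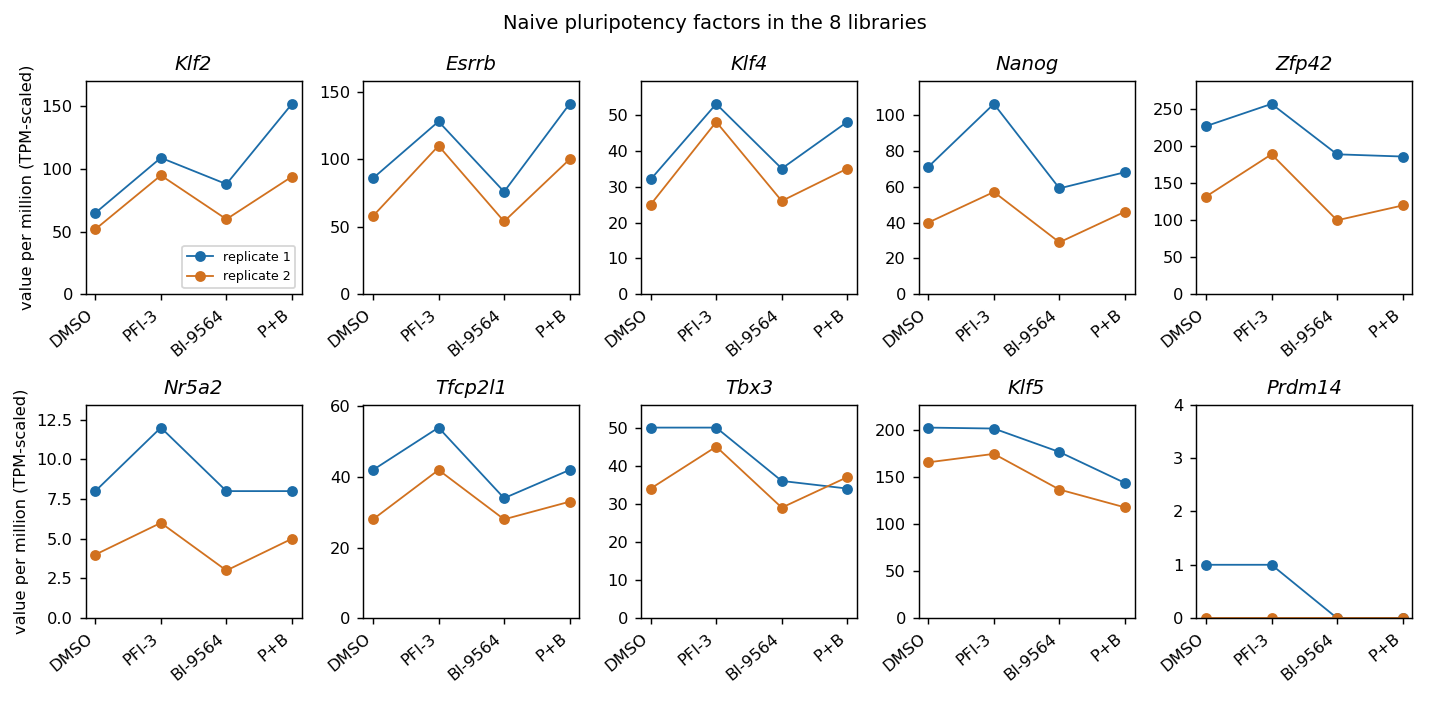
Level of each naive pluripotency factor (vertical axis, TPM as deposited, from 0; each panel has its own scale) in the 4 treatments (horizontal axis), with the 4 libraries of each replicate number joined by a line. Replicate 2 lies below replicate 1 for 8 of the 9 tested genes in every treatment. Klf2 and Esrrb are highest with P+B in replicate 1 and with PFI-3 in replicate 2. Klf4, Nanog, Zfp42, Nr5a2 and Tfcp2l1 are highest with PFI-3 in both, as is Tbx3 with a tie with DMSO in replicate 1. Klf5 is lowest with P+B, and Prdm14 stays at 0 or 1.

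The bases before the transcription starts are shown for 2 pairs of members with like profiles across the libraries, Esrrb with Klf2 and Nanog with Zfp42 (correlations given below). RefSeq promoter windows (GRCm38.p6, 250 bases before the start) were matched for 7 of the 10 genes by symbol, with 10 windows in all. Klf5, Tbx3 and Prdm14 were not matched. The stretches are written 5′ to 3′ on the strand of the gene, in lower case, with capitals for the letters GGGCGTG or GGGTGTG on either strand (CACGCCC and CACACCC on the other), which KLF factors favour. Klf2 is shown up to the annotated gene, and Esrrb is shown for its first start.
Klf2 (chr8:72318812-72319032, + strand): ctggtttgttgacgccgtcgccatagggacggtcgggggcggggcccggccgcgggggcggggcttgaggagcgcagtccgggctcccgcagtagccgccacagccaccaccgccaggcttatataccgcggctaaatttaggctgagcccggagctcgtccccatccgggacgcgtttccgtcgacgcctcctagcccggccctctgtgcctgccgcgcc
Esrrb (chr12:86360867-86361116, + strand): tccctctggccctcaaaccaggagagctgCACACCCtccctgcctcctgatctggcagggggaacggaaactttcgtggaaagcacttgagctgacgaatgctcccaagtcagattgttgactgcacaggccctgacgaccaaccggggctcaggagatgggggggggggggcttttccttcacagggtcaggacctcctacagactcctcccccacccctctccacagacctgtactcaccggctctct
Nanog (chr6:122707239-122707488, + strand): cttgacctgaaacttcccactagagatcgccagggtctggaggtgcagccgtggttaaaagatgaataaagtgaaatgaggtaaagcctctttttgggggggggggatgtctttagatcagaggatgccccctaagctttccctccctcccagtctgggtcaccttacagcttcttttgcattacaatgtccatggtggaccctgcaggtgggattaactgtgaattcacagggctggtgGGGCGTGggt
Zfp42 (chr8:43307010-43307259, - strand): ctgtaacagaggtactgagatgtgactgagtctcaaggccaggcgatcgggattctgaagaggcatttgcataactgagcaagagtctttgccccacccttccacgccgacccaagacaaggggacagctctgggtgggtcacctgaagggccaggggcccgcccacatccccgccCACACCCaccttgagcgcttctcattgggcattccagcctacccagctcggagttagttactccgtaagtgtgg

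KLF letters stood in at least 1 window of Nanog, Esrrb, Nr5a2, Tfcp2l1 and Zfp42, at -10, -221, -157 (second start), -60 with -46, and -74 bases from the start, and in no window of Klf2 and Klf4. By windows, 6 of 10 held them, with the overlapping windows of the 2 Nanog starts sharing 1 match, against 13.78% of all 32851 RefSeq promoter windows of mouse. The AP-1 letters TGACTCA and TGAGTCA, the motif of JUN with its partners, stood in none of the 10 windows and in 4.46% of all. The letters CAAGGTCA bound by ESRRB and NR5A2 stood in none of the 10 windows and in 1.33% of all. As KLF letters alone were found, no hits of different motifs overlapped. A match is a description of letters only, and the absence of one concerns this window alone.

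The next question was whether the combined inhibitors, which were used to block recognition of acetylated histones by BAF during PST, changed the naive factors. With P+B against DMSO, Klf2 was 2.04-fold and Esrrb 1.67-fold higher, Klf4 was 1.43-fold higher and Klf5 was lower, at 0.712 of DMSO, all on the log2(value + 1) scale. Nanog, Zfp42, Nr5a2, Tfcp2l1 and Tbx3 lay between -0.21 and 0.13 on the log2 scale. The median of the 9 tested factors was 0.11 against 0.063 over all genes, and was 0.056 with quantile normalization and 0.022 with median centring. It ran from -0.29 without replicate 2 of DMSO to 0.47 without replicate 1 of DMSO, which leaves the replicate numbers unequal between the groups. The same imbalance enters the medians given below with a library of a compared group left out. In the limma fit of all 8 libraries by group, none of the 9 tested factors was called, that is, passed an adjusted p of 0.05 with a fold change of at least 1.5, against 4.0% of all genes tested. 4 of the 9 had an unadjusted p below 0.05, as did 22.6% of all genes, and the closest was Klf2 (log2 difference 1.03 ± 0.25 SE, adjusted p = 0.0568).

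The replicate numbers carried a shared component, described below, and with the number as a block in the fit Klf2 (adjusted p = 0.00284) and Esrrb (log2 difference 0.74 ± 0.10 SE, adjusted p = 0.00486) were called higher. This was 2 of 9, against 2.93% of all genes called higher and 7.02% called in either direction. Klf5 (-0.49, adjusted p = 0.00521) and Klf4 (0.52, adjusted p = 0.0331) passed the p threshold in that fit but not the fold. Leaving out single libraries moved these calls: without replicate 1 of DMSO the adjusted p of Klf2 was 0.0549, and that of Esrrb was 0.0674 without replicate 2 of DMSO, 0.0704 without replicate 1 of P+B and 0.0653 without replicate 2 of P+B. In the other single-library omissions each kept its call.

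Within same-numbered pairs, the P+B library exceeded its DMSO partner in both pairs for Klf2 (log2 differences 1.21 and 0.84), Esrrb (0.71 and 0.78) and Klf4 (0.57 and 0.47). These 3 of 9 are no larger a share than the 37.7% of all tested genes that were higher in both pairs. Klf5 was lower by the same amount in each pair (-0.49 and -0.49), and Zfp42 was lower in both (-0.29 and -0.14). By libraries that did not overlap at all, Klf2, Esrrb and Klf4 were above DMSO, which held for 28.6% of all genes, and Klf5 was below, which held for 18.9%. The counts of 3 and 1 of 9 are near these shares. With 2 libraries against 2, an exact permutation test of a single gene cannot give a two-sided p below 0.333.

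PFI-3 alone was then compared with DMSO. All 9 tested factors had a higher mean, with a median log2 difference of 0.51 against 0.018 over all genes (0.13 without replicate 1 of PFI-3 and 0.93 without replicate 1 of DMSO), and 7 of 9 were higher in both same-numbered pairs against 27.3% of all genes. Many of the factors moved together across the libraries (correlations given below). In every comparison a count out of 9 is therefore not a count of independent observations. Klf4 (log2 difference 0.81 ± 0.21 SE), Klf2 (0.80 ± 0.25 SE) and Esrrb (0.74 ± 0.24 SE) had the largest differences, followed by Nanog (0.54 ± 0.42 SE), Nr5a2 (0.51 ± 0.51 SE) and Tfcp2l1 (0.46 ± 0.23 SE). None was called by limma, and neither was any other gene (0% of 10222). Among the 9 factors the lowest adjusted p was 0.514, for Klf4. 3 of the 9 factors had an unadjusted p below 0.05, against 6.79% of all genes, and 6 did with the block, against 11.2%. In that fit Klf2, Klf4 and Esrrb shared an adjusted p of 0.147 and again no gene was called (0%). Klf5 was the factor closest to no difference (0.034, 95% interval -0.34 to 0.41).

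BI-9564 alone gave a different ordering. Of the 9 factors, 7 had a lower mean than in DMSO, with a median log2 difference of -0.16 against 0.024 over all genes (-0.43 without replicate 2 of DMSO and 0.14 without replicate 1 of DMSO), and 5 were lower in both pairs (Nanog, Esrrb, Klf5, Tbx3 and Zfp42) against 27.2% of all genes. Klf2 (0.43 and 0.20) and Klf4 (0.13 and 0.05) were higher in both. None was called without the block, against 0.108% of genes, and none had an unadjusted p below 0.05, against 14.9%. With the block again none was called, against 1.53%, while 4 had an unadjusted p below 0.05, against 21.3% of all genes, the lowest adjusted p being 0.109 for Klf5. The 95% intervals without the block were wide, from -1.32 to 0.61 for Nanog and -1.15 to 0.49 for Zfp42.

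**Figure D2:**
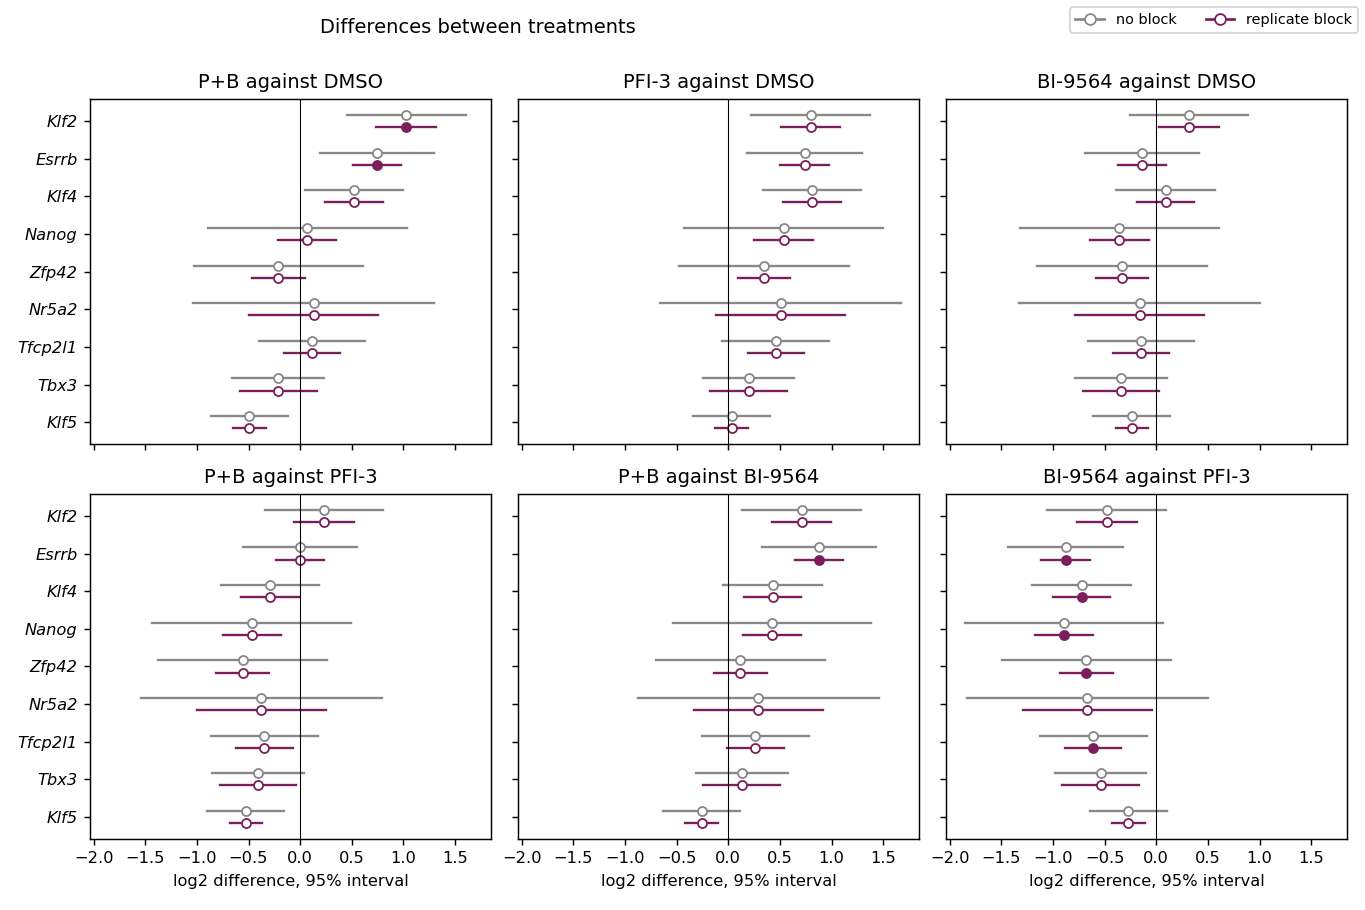
Log2 difference (horizontal axis, log2(TPM + 1) scale) of each tested factor in the 6 comparisons, with 95% intervals from limma without (grey) and with (purple) the replicate number as a block; filled points were called. Filled points occur only with the block: Klf2 and Esrrb in P+B against DMSO, Esrrb in P+B against BI-9564, and 5 factors in BI-9564 against PFI-3.

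The 2 compounds were also set against each other. All 9 tested factors were lower with BI-9564 than with PFI-3 in both same-numbered pairs, against 29.2% of all genes, with a median log2 difference of -0.67 against 0.0014 over all genes (-0.93 without replicate 1 and -0.39 without replicate 2 of BI-9564). Without the block none was called (0.108% of genes were), although Esrrb, Klf4, Tbx3 and Tfcp2l1 had unadjusted p-values below 0.05, as did 14.2% of all genes. With the block, 5 of 9 were called lower: Nanog (-0.89 ± 0.12 SE, adjusted p = 0.0203), Esrrb (-0.88 ± 0.10 SE, adjusted p = 0.0144), Klf4 (-0.72 ± 0.12 SE, adjusted p = 0.0313), Zfp42 (-0.68 ± 0.11 SE, adjusted p = 0.0291) and Tfcp2l1 (-0.61 ± 0.12 SE, adjusted p = 0.0451). Of all genes, 0.978% were called lower in that fit and 1.48% in either direction. These calls rest on the complete set of libraries: with any of the 8 left out, 0 of the 9 factors was called, and the adjusted p-values of the 5 then ran from 0.0552 to 0.293. They were also lost without the filter on low values and without the trend term, where 0 was called, and with a minimum mean of 1, where Esrrb alone was. With a pseudocount of 5 Tfcp2l1 fell below the fold threshold (-0.55) and 4 were called.

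With P+B against PFI-3, the mean was lower for 7 of the 9 factors, with a median of -0.38 against 0.028 over all genes (-0.52 without replicate 2 of PFI-3 and -0.17 without replicate 1 of PFI-3), and the same 7 were lower in both pairs, against 27.2% of all genes. The exceptions were Esrrb (0.14 and -0.14) and Klf2 (0.48 and -0.02). None was called without the block (1.31% of genes were, and Klf5 alone had an unadjusted p below 0.05, against 16.6% of all genes) or with it (3.43% of genes). With the block Klf5 (-0.53, adjusted p = 0.00798) and Zfp42 (-0.56, adjusted p = 0.0312) passed the p threshold but not the fold, while the difference of Esrrb was 0.0012 with a 95% interval of -0.23 to 0.24.

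With P+B against BI-9564, the mean was higher for 8 of 9 factors, with a median of 0.29 against 0.022 over all genes (-0.02 without replicate 2 of BI-9564 and 0.64 without replicate 1 of BI-9564), and 5 were higher in both pairs (Esrrb, Klf2, Klf4, Nanog and Tfcp2l1), against 28.6% of all genes. Klf5 was the exception, lower in both pairs (-0.30 and -0.21). Without the block none was called, against 0.196% of genes, and 2 had an unadjusted p below 0.05, against 7.97%. With the block, Esrrb was called higher (0.88 ± 0.10 SE, adjusted p = 0.0118), against 0.0783% of genes called higher and 0.802% in either direction, and Klf2 missed the threshold (0.71 ± 0.12 SE, adjusted p = 0.0525). The call of Esrrb was kept when either PFI-3 library was left out (adjusted p = 0.0415 and 0.0426) and was lost when any of the other 6 was, with adjusted p from 0.0526 to 0.226. It was also lost without the filter on low values (adjusted p = 0.127) and without the trend term (0.0989).

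**Figure D3:**
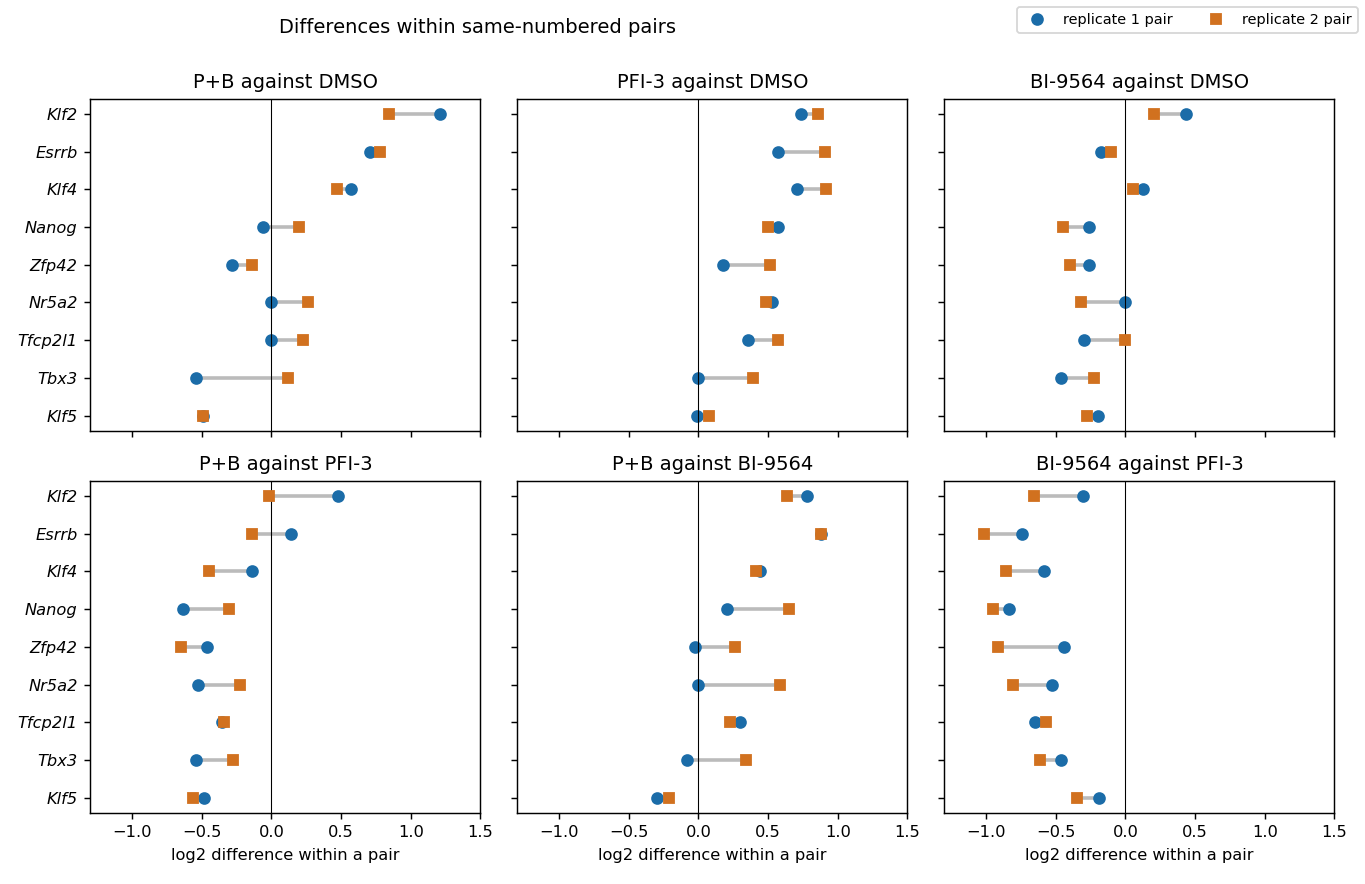
Log2 difference of each tested factor within the replicate 1 pair (blue circles) and the replicate 2 pair (orange squares) for the 6 comparisons (horizontal axis, log2(TPM + 1) scale). All points lie left of 0 for BI-9564 against PFI-3, Klf2, Esrrb and Klf4 lie right of 0 and Klf5 left of 0 for P+B against DMSO.

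Viewed by compound rather than by group, Esrrb and Klf2 were the members whose 4 libraries with PFI-3 all exceeded the 4 without: 100 to 141 against 54 to 86 for Esrrb, and 94 to 152 against 52 to 88 for Klf2. Among all tested genes 1.94% showed this. Klf4 met it but for a tie (35 to 53 against 25 to 35). The comparisons share libraries, those with DMSO as well as those with P+B, so they are not independent views of a gene. Whether the response to both compounds departed from the sum of the single responses was tested as a contrast of the 4 groups. 0 members and 0 genes were called by limma with or without the block, with 333 genes and 0 members at an unadjusted p below 0.05 without it and 588 genes and 1 member, Klf5 (-0.29), with it.

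The values of these genes also differed by replicate number. Replicate 2 was lower than replicate 1 in all 4 groups for 8 of the 9 tested factors, the exception being Tbx3 with P+B (34 and 37), whereas 12.8% of all genes were lower in all 4. In the fit with group and replicate terms, Nanog (-0.81 ± 0.09 SE, adjusted p = 0.00429) and Zfp42 (-0.69 ± 0.08 SE, adjusted p = 0.00528) were called lower, against 0.763% of genes called lower and 1.32% in either direction. Esrrb, Klf5 and Klf2 passed the p threshold at smaller folds (adjusted p = 0.0194, 0.0217 and 0.0415). Nr5a2 had the largest difference (-0.87 ± 0.19 SE), with an adjusted p of 0.0519. Neither call held under every single-library omission: the adjusted p ran from 0.0374 to 0.0597 for Nanog and from 0.0309 to 0.0696 for Zfp42, and without replicate 1 of DMSO or replicate 2 of BI-9564 neither passed.

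Other values moved with the replicate number. Jun was higher in replicate 2 in all 4 groups (0.51 ± 0.03 SE, adjusted p = 0.000382, below the fold threshold), and the two-cell-like markers were higher there too, as given above. Against DMSO, Jun was not called with P+B or with PFI-3 in either limma fit. With P+B its log2 difference was -0.37 (adjusted p = 0.00156 with the block, below the fold threshold, and 0.437 without). With PFI-3 it was -0.35 (adjusted p = 0.116 with the block and 0.876 without), with -0.33 and -0.37 in the same-numbered pairs. Between the compounds, Jun was higher with BI-9564 than with PFI-3 (0.42, limma adjusted p = 0.00961 with the block and 0.525 without). With P+B against BI-9564 its log2 difference was -0.44 (limma adjusted p = 0.00635 with the block and 0.769 without). Both differences were below the fold threshold, so neither was called. The part of the JUN level, and of two-cell-like cells, in the values of the naive factors was not tested.

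**Figure D4:**
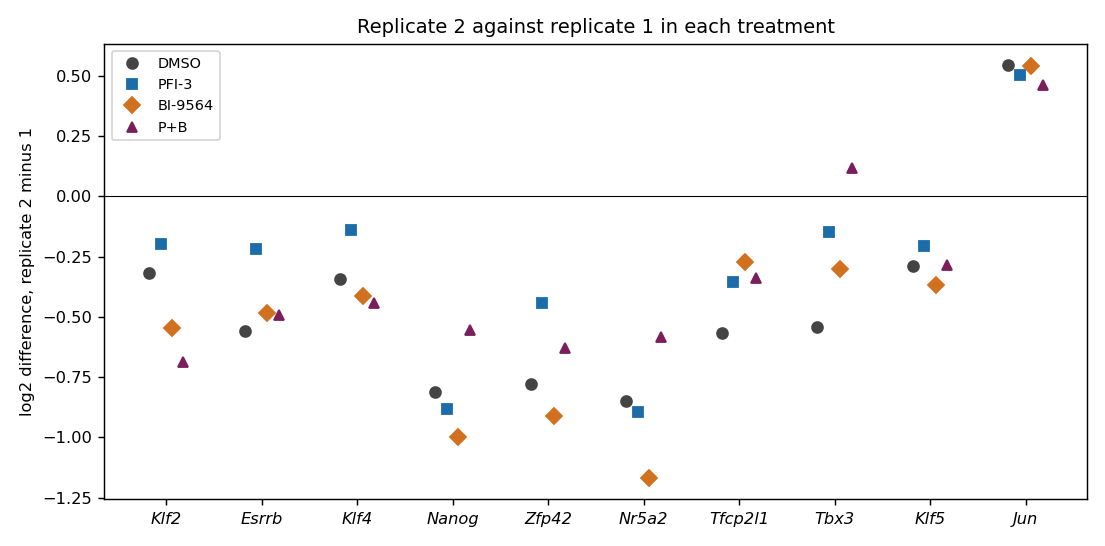
Log2 difference between replicate 2 and replicate 1 (vertical axis, log2(TPM + 1) scale) in each treatment (symbols) for the 9 tested factors and Jun. All points of the naive factors lie below 0 except Tbx3 with P+B, and all 4 points of Jun lie above 0.

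Across the 8 libraries, which share both treatments and replicate numbers, the factors formed a graded series of profiles, given here as a description. Nanog was closest to Nr5a2 (Pearson r = 0.98), Zfp42 (0.95) and Tfcp2l1 (0.94). Esrrb was closest to Klf4 (0.94) and Klf2 (0.91). Klf5 was closest to Zfp42 (0.81) and least like Klf2 (-0.10) and Esrrb (0.12). With the mean of each replicate number taken out, the first relations stayed high (0.97 for Nanog with Nr5a2, 0.92 for Esrrb with Klf4 and 0.88 for Esrrb with Klf2), and Klf5 with Klf2 came to -0.50. Tested genes outside the list were ranked too, leaving out symbols with a Gm number, ending in Rik or starting with a digit. The profiles most like the mean of the standardised factors were those of Etv5 (r = 0.996 over 8 libraries), Renbp (0.972), Amdhd2 (0.968), Grn (0.964) and Glud1 (0.962). These are the highest of many correlations and were not tested. Etv5, an ETS factor, is also in the list of FGF and ERK genes read below. It was 146 and 109 in the DMSO libraries, 185 and 147 under PFI-3, 131 and 99 under BI-9564, and 147 and 118 under P+B.

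The genes around the naive circuit were read in the same P+B comparison, without the block unless stated. The background for each count is the 4.0% of all tested genes called in that comparison without the block, or the 7.02% with it. Of 18 tested genes of a list of further naive-state genes, 1 was called higher and 5 lower: Gbx2, a homeobox target of STAT3, was higher (1.67, adjusted p = 0.0335), and Manba (-1.32, adjusted p = 0.00597) and Pecam1 (-1.05, adjusted p = 0.00282), an adhesion molecule of the mESC surface, were lower together with Klf3, Fbxo15 and Jam2. Gbx2 was low, at 7 and 10 in the DMSO libraries and 26 and 32 under P+B. Pecam1 was 53 and 53 in the DMSO libraries, 49 and 47 under PFI-3, 28 and 27 under BI-9564, and 25 and 25 under P+B, so that its low libraries were those given BI-9564. Of the 8 core factors, Tdgf1, the Nodal co-receptor Cripto, was called lower (-0.93, adjusted p = 0.00916), while Pou5f1, which encodes OCT4, ran from 1104 to 1333 in all libraries (P+B against DMSO -0.13, adjusted p = 0.276).

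The inputs of the circuit were mixed. Of 11 LIF and STAT3 genes, Ier3 (-1.87, adjusted p = 0.0161) and Junb (-0.74, adjusted p = 0.037), which is also an AP-1 family gene, were called lower and none higher. By mean, 5 of these 11 were higher and 6 lower, with a median log2 difference of -0.0072. Of 12 tested WNT and TCF genes 0 was called (2.30 for Sp5, adjusted p = 0.0513; 1.18 for Axin2, adjusted p = 0.06), but Sp5, Axin2 and Cdx1, targets of β-catenin, were called higher with the block (adjusted p = 0.00104, 0.00258 and 0.012). Sp5 was low, at 3 and 8 in the DMSO libraries and 22 and 37 under P+B. Sp5, Axin2 and Cdx1 were each higher in replicate 2 in every group. Of 11 tested FGF and ERK genes 0 was called, and Spry2, a feedback inhibitor of the pathway, was called higher with the block (0.65, adjusted p = 0.035). Of 12 repressors and co-regulators of the naive factors, among them the coactivator Ncoa3 and the activator Tfe3, 0 was called, and Flcn (0.70, adjusted p = 0.032) and Fnip1 (0.64, adjusted p = 0.0373), partners in the folliculin complex, were called higher with the block. Of 19 formative and primed genes 7 were high enough to test, with Zic2 called higher (1.26, adjusted p = 0.0439) and Lefty2 called lower with the block (-1.15, adjusted p = 0.0263). Their levels were low: Zic2 was 6 and 6 in the DMSO libraries and 13 and 19 under P+B. Lefty2 was 23 and 8 in the DMSO libraries and 10 and 3 under P+B. Among 9 tested KLF paralogs outside the members Klf3 was called lower (-0.73, adjusted p = 0.0397), and none of the 4 tested orphan receptor relatives or the 10 tested relatives of the other members was called in either fit.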

How the data were processed

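RNA-seq libraries were made with a VAHTS mRNA-seq kit from TRIzol-extracted RNA. The submitters' processing notes name bcl2fastq, Bowtie2 2.2.5, RSEM 1.3.0 and the build mm10; the annotation, the strand setting and the depth are not given in the sources used here. The authors deposited 1 table of scores for all 8 libraries: TPM made whole numbers, with column sums of 991574 to 991897. No counts were given, so no count model was run and the limma test fitted the unit.

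Here, genes with a mean of at least 5 (10222 of 50600) were taken as log2(value + 1) and fitted with limma 3.58.1 in R 4.3.3 by group (4 residual degrees of freedom), with a trend and Benjamini-Hochberg adjustment over all tested genes; called means adjusted p below 0.05 with a change of 1.5-fold or more. The alternative with the replicate number as a block left 3. Replicates with the same number deviated together: the correlation of the replicate differences was 0.143 to 0.236 in the 6 pairs of groups, every value over 0.1, so results with the block are given beside those without it where they change a call. This pairing is a hint from the data, since the labels do not say what a number marks. Nothing says that the libraries came from separate cultures, so p-values measure only the spread between them. The members and the lists were chosen with earlier results of these data known. All 10 members are named. From each other list up to 3 genes called in P+B against DMSO are named, or those with the largest difference there. The ES cell markers are named as a full list, and the values of Pou5f1, Dppa5a and Lin28a were picked after they were seen. Klf3, Fbxo15, Jam2, Ncoa3 and Tfe3 were also named with their values already seen.

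Gene positions follow GENCODE M21 on GRCm38. Motifs were searched on both strands of the 250 bases before each RefSeq start. The alternatives were other pseudocounts and filters, 2 scalings, no trend, only the libraries compared, no fold threshold and each library left out. Fits that kept the block and changed 1 other choice were added after seeing the data.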

Additional observations from a re-analysis of the deposited data

How the results depend on the processing

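Every count of called members, without the block, was 0 under each of the other settings tried; the replicate block, which pairs same-numbered libraries, gave 2 for P+B against DMSO, 1 for P+B against BI-9564 and 5 for BI-9564 against PFI-3, and changed no other count. With the block kept, 4 members passed for P+B against DMSO with no fold threshold, and 1 to 2 when single libraries were left out. For P+B against PFI-3, 1 passed with median centring and 2 with no fold threshold. For P+B against BI-9564, 0 passed without the filter on low values or without the trend, and 0 to 1 when single libraries were left out. For BI-9564 against PFI-3, 4 passed with a pseudocount of 5 (Tfcp2l1 was lost, at -0.55), 1 with a minimum mean of 1, 0 without the filter or the trend, and 0 with any library left out. For replicate 2 against replicate 1, 1 passed without the filter or the trend, 5 with no fold threshold and 0 to 2 when single libraries were left out; a group left with 1 library is assumed to vary like the others. The cause of these losses was not tested.

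The median log2 difference of the tested members for P+B against DMSO was 0.076 with a pseudocount of 5, 0.056 with quantile normalization and 0.022 with median centring. For PFI-3 against DMSO it was 0.54 and 0.42 with pseudocounts of 0.5 and 5, 0.48 without the filter, 0.47 with quantile normalization and 0.46 with median centring. For BI-9564 against DMSO it was -0.18 and -0.13 with these pseudocounts, -0.20 without the filter and -0.21 with median centring. Median centring, which shifted the median of all genes by at most 0.0931 in size, turned the sign of 3 values near 0: -0.025 for Nanog in P+B against DMSO, -0.013 for Klf5 in PFI-3 against DMSO and -0.045 for Esrrb in P+B against PFI-3.

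Leaving out single libraries moved the medians from -0.29 to 0.47 for P+B against DMSO, 0.13 to 0.93 for PFI-3 against DMSO, -0.43 to 0.14 for BI-9564 against DMSO, -0.52 to -0.17 for P+B against PFI-3, -0.021 to 0.64 for P+B against BI-9564 and -0.93 to -0.39 for BI-9564 against PFI-3. Leaving out a library of a compared group makes the replicate numbers unequal between the groups. As 8 of the 9 tested members were lower in replicate 2 in every group, these ranges also hold that difference. Uncalled members changed sign over the ranges of single-library omissions. For P+B against DMSO they were -0.34 to 0.47 for Nanog, -0.29 to 0.56 for Nr5a2, -0.17 to 0.40 for Tfcp2l1, -0.48 to 0.059 for Tbx3 and -0.60 to 0.18 for Zfp42. For PFI-3 against DMSO they were -0.11 to 0.18 for Klf5, -0.074 to 0.47 for Tbx3 and -0.042 to 0.74 for Zfp42. For BI-9564 against DMSO they were -0.86 to 0.14 for Nanog, -0.42 to 0.14 for Esrrb, -0.12 to 0.30 for Klf4, -0.75 to 0.42 for Nr5a2, -0.43 to 0.14 for Tfcp2l1 and -0.79 to 0.13 for Zfp42. For P+B against PFI-3 they were -0.24 to 0.25 for Esrrb, -0.11 to 0.57 for Klf2 and -0.82 to 0.070 for Nr5a2. For P+B against BI-9564 they were -0.075 to 0.92 for Nanog, -0.29 to 0.88 for Nr5a2, -0.021 to 0.28 for Tbx3 and -0.34 to 0.57 for Zfp42. Klf2, Esrrb, Klf4 and Klf5 kept their direction in P+B against DMSO, and all 9 tested members did in BI-9564 against PFI-3, under each alternative run. No depth is given, so what counting error adds for a low gene such as Nr5a2 is unknown.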
